A study of Mus musculus with 24 samples.

Results

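7 genes of water and glycerol movement in mouse liver are described here: the aquaporins Aqp1, Aqp4, Aqp7, Aqp8, Aqp9 and Aqp11, and the glycerol 3-phosphate dehydrogenase Gpd1. They were taken by symbol, and all 7 were among the 41388 genes counted. Polyadenylated RNA of whole livers was sequenced in a factorial design of genotype and feeding. The knockout mice were labelled as a liver-specific knockout of ALT2, the alanine transaminase encoded by Gpt2, and the control mice were titled fl/fl, the usual notation for 2 floxed alleles. Mice of each genotype were either fasted for 18 h or fed without restriction. The 4 groups were knockout fasted livers (6 libraries), knockout fed livers (6), control fasted livers (5 of 6 used) and control fed livers (5 of 6 used). The strain, the age, the Cre driver of the knockout and the meaning of the letter M in every title were found in no source used here. The 24 titles carry 24 different numbers, which may identify mice, but the labels do not say what the numbers mark. The p-values below therefore reflect the scatter among libraries, which may be partly technical.

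Of 24 libraries, 22 were used, with 18.4 to 55.3 M reads assigned to genes. The file for control fed replicate 6 broke off after 964 intact lines of chromosome 1 genes, so this library was not used. The library labelled control fasted replicate 4 was also left out: it held 73.7 counts per M reads (CPM, here scaled by TMM factors) of the albumin gene Alb and 4229 CPM of the kidney androgen-regulated gene Kap. In the other 22 libraries Alb was at 44410 CPM or more, as in liver, and Kap at 8.97 CPM or less. The TMM factor of the left-out library came from a separate fit that included it. The targeted gene Gpt2 averaged 111.6 ± 36.3 CPM in knockout fasted and 696.5 ± 86.7 CPM in control fasted livers, and 60.45 ± 11.3 CPM in knockout fed and 370.3 ± 52.0 CPM in control fed livers (SD, n = 6, 5, 6 and 5). The ranges of knockout and control livers did not overlap in either feeding state.

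Aquaporins are channels in cell membranes. Some pass water only, whereas the aquaglyceroporins also pass glycerol. During a fast, adipose tissue releases glycerol from stored triglyceride, and the liver takes it up and phosphorylates it. The product, glycerol 3-phosphate, is either oxidised to dihydroxyacetone phosphate on the way to glucose or acylated to form new glycerolipids. In rodents Aqp9 is the aquaglyceroporin of the hepatocyte membrane facing the blood, and Aqp7 is the one through which adipocytes release glycerol. Aqp8 is a hepatocyte channel for water, ammonia and hydrogen peroxide, Aqp11 is an intracellular channel of the endoplasmic reticulum, and Aqp1 is found in endothelium, bile duct epithelium and red cells. Aqp4 is best known from astrocytes and also occurs in bile duct epithelium.

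Promoter sequence was at hand for 5 of the 7 members (RefSeq, GRCm38.p6, 250 bases before to 50 after a start site). The promoters of Aqp8 and Aqp9 are shown because these hepatocyte channels gave different results on fasting, described below by gene. The strand printed is that of the gene. Capitals mark matches, on either strand, to any of 5 motifs searched. These were the E-box CACGTG, the forkhead-type motif TGTTTAC with its variant form TGTTTTC, the nuclear receptor motif called AGGTCA, and a direct repeat of it with a base between, AGGTCANAGGTCA, which includes the single motif. The motifs were chosen after the sequences and the results had been seen.
Aqp8, chr7:123462044-123462343, plus strand: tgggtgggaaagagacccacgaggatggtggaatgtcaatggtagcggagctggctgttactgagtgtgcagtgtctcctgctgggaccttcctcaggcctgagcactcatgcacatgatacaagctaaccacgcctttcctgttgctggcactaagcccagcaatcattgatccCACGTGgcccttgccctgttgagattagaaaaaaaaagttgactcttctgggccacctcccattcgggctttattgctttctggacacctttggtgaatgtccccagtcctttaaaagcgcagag
Aqp9, start site 1, chr9:71163240-71163539, minus strand: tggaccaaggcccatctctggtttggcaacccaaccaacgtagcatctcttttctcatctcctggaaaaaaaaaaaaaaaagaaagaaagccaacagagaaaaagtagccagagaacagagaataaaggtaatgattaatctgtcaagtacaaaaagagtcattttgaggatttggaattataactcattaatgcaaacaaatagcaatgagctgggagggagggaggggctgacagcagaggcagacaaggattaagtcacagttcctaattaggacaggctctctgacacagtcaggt
Aqp9, start site 2, chr9:71162584-71162883, minus strand: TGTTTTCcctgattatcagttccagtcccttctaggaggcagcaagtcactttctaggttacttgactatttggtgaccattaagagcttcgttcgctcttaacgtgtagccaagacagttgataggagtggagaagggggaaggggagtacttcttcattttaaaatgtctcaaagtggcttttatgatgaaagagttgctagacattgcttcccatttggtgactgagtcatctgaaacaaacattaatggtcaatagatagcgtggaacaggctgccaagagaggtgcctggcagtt
The Aqp8 window held CACGTG with its first base 75 bases before the start site, a match that 7.15% of 32841 promoters of the same length had. The window at Aqp9 start site 1 held none of the 5 motifs, and that at start site 2 began with TGTTTTC, found in 7.35% of promoters. Both Aqp9 windows lie inside the counted gene, which on the minus strand begins at base 71168682. No window at that base was at hand. AGGTCA was found in the windows of Aqp7 and Aqp11 and in 16.3% of all promoters. A match describes these letters and is no evidence of a bound site.

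Levels per gene length set the members in order. Values here are TMM-scaled reads per kilobase per M reads (RPKM). Gpd1 was highest in every group, averaging 187 RPKM in knockout fasted, 98.2 in knockout fed, 199 in control fasted and 104 in control fed livers. Aqp9 was the highest aquaporin in each group, averaging 84.2 RPKM in knockout fasted, 74.6 in knockout fed, 88.0 in control fasted and 71.6 in control fed livers. In both fasted groups every Gpd1 value lay above every Aqp9 value, whereas in both fed groups the ranges of these genes overlapped. The place of Aqp8 in the order differed with feeding: it averaged 9.73 RPKM in knockout fasted and 55.7 RPKM in knockout fed livers, and 7.72 RPKM in control fasted and 50.3 RPKM in control fed livers. In fed livers Aqp8 followed Aqp9, its range overlapping that of Aqp9 and lying above that of Aqp1 in both genotypes. In fasted livers it came behind Aqp1 and Aqp11, with a range that overlapped that of Aqp11 in knockout livers and not in control livers. Aqp1 averaged 28.3 RPKM in knockout fasted, 26.6 in knockout fed, 20.2 in control fasted and 21.4 in control fed livers. Aqp11 averaged 14.3 RPKM in knockout fasted, 14.4 in knockout fed, 13.4 in control fasted and 16.9 in control fed livers. The ranges of Aqp1 and Aqp11 overlapped only in control fed livers among the 4 groups. Aqp4 followed with 1.58 RPKM in knockout fasted, 0.726 in knockout fed, 1.11 in control fasted and 0.426 in control fed livers, and Aqp7 was near 0 in all groups.

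**Figure D1:**
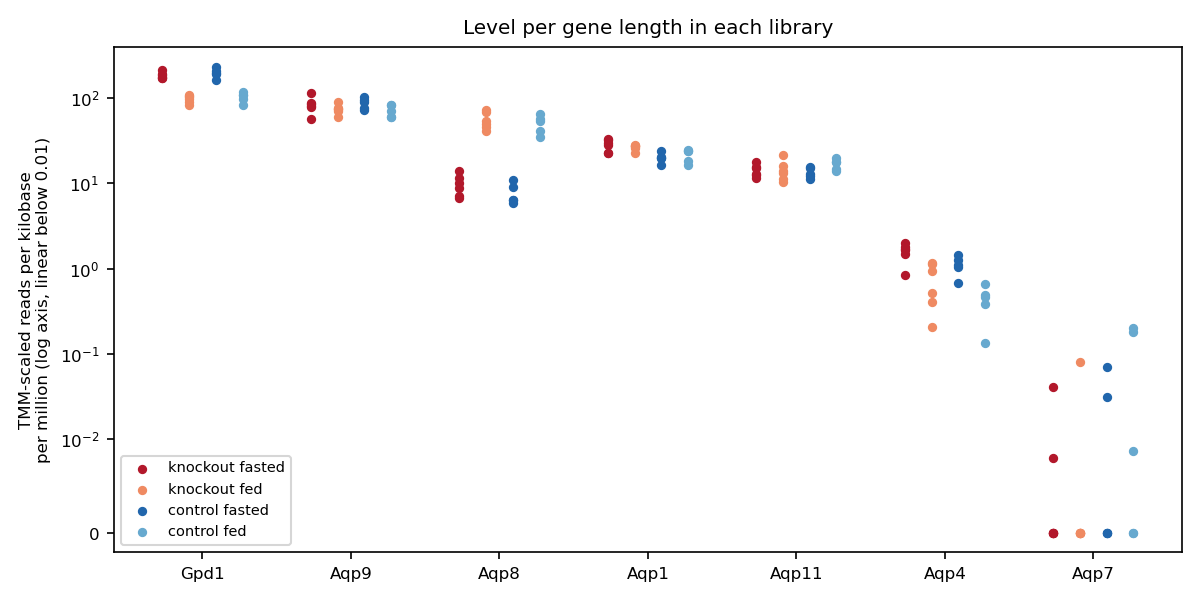
TMM-scaled RPKM (vertical, log axis that turns linear below 0.01) of the 7 members in each of 22 libraries; colours mark the 4 groups. Aqp8 lies close to Aqp9 in fed livers and among or below the values of Aqp11 in fasted livers, and Aqp7 is at 0 in 14 libraries.

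Fasting was compared first within each genotype. Of the 7 members 6 passed the filter on low counts, and 3 of these 6 changed with fasting in knockout livers, where 6.14% of 16757 genes tested were called at an adjusted p under 0.05 (edgeR quasi-likelihood test, Benjamini-Hochberg adjustment over all genes tested). The same count of 3 of 6 was reached in control livers, where 8.12% of genes were called. The 3 genes were in both genotypes Aqp8, which fell, and Gpd1 and Aqp4, which rose. By direction, 2.88% of genes rose and 3.26% fell in knockout livers, and 3.99% rose and 4.13% fell in control livers. The median log2 fold change of the 6 members was 0.13 in knockout livers, beside 0.011 over all genes tested, and 0.11 in control livers, beside 0.0032 over all genes. A fall of a transcript in whole liver can mean fewer cells of a type or less RNA per cell, which cannot be told apart here.

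Aqp8 (ENSMUSG00000030762, GRCm38 chr7:123462294-123468003, plus strand) had the largest fold change of the members. In knockout livers it ranged over 10.7, 15.1 and 21.9 CPM (lowest, median and highest of 6) when fasted, and over 65.6, 82.2 and 115 CPM when fed. In control livers it stood at 10.02, 14.2, 9.18, 10.1 and 17.4 CPM when fasted, and at 89.3, 64.8, 85.3, 102 and 55.1 CPM when fed. The highest of the 11 fasted values, 21.9 CPM in knockout fasted replicate 4, lay below the lowest of the 11 fed values, 55.1 CPM in control fed replicate 5. Aqp8 fell by 2.51 ± 0.21 on the log2 scale (SE, adjusted p = 9.84e-09), to a level 5.70-fold lower in fasted than in fed knockout livers. In control livers it fell by 2.71 ± 0.23 (adjusted p = 1.57e-08), 6.53-fold. By p-value it ranked 13 of 16757 genes in knockout and 15 in control livers. The difference between genotypes in the fasting effect was 0.20 ± 0.29 on the log2 scale (adjusted p = 1.0, edgeR interaction term).

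Hepatocyte and zonation markers were read beside Aqp8. The summed level of 9 hepatocyte genes ranged from 81720 to 162600 CPM in knockout fasted, 77260 to 139500 CPM in knockout fed, 75890 to 139800 CPM in control fasted and 79080 to 113800 CPM in control fed livers, and none of them was at 0. Alb alone averaged 79330, 65730, 70530 and 63650 CPM in these groups, so the sum mostly followed Alb. With fasting, 1 of the 9 rose (Hnf4a) and 0 fell in knockout livers. In control livers 2 rose (Apoa1 and Apob) and 1 fell (Fga). Of 9 genes of hepatocytes around the central vein, 2 fell with fasting in knockout livers and 3 in control livers, with Lect2 and Cyp1a2 among them in both. None of the 9 rose past the threshold. The log2 fold change was above 0 for 5 of the 9 in knockout livers (median 0.06) and for 4 of the 9 in control livers (median -0.10). Over all genes tested the medians were 0.011 and 0.0032. In knockout livers 2.88% of all genes rose and 3.26% fell, and in control livers 3.99% rose and 4.13% fell. Cyp1a2, a xenobiotic-metabolising cytochrome P450, fell by 1.02 ± 0.15 in knockout and by 1.33 ± 0.16 in control livers. The part of zonation in the fall of Aqp8 was not tested.

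Aqp9 (ENSMUSG00000032204, chr9:71110659-71168682, minus strand) did not pass the test in either genotype. It had 235, 347 and 473 CPM (lowest, median, highest) in knockout fasted and 249, 309 and 376 CPM in knockout fed livers. In control livers it had 378, 398, 302.0, 430.0 and 314 CPM when fasted, and 292, 343, 249, 349 and 251 CPM when fed. The fasted and fed ranges overlapped in both genotypes. The log2 fold changes were 0.17 ± 0.13 in knockout livers (adjusted p = 0.62) and 0.30 ± 0.14 in control livers (adjusted p = 0.244, unadjusted p = 0.046, edgeR).

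**Figure D2:**
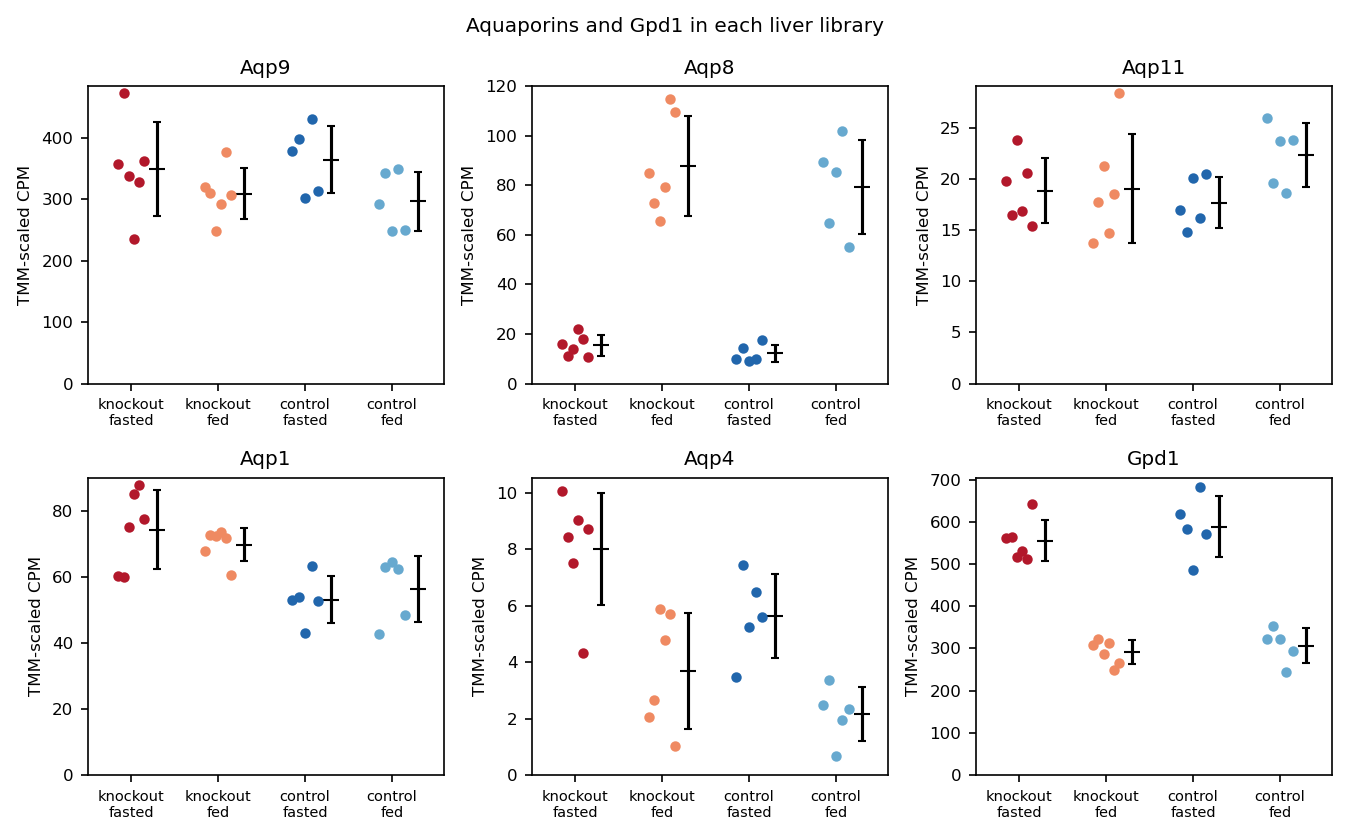
TMM-scaled CPM (vertical) of 6 members in knockout fasted, knockout fed, control fasted and control fed livers; points are libraries, and bars beside them mean and SD. Fasted and fed values do not overlap for Aqp8 and Gpd1, and Aqp9 and Aqp11 overlap between all groups.

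Aqp11 (ENSMUSG00000042797, chr7:97726379-97738247, minus strand) averaged 18.8 ± 3.17 CPM in knockout fasted and 19.1 ± 5.29 CPM in knockout fed livers, and 17.7 ± 2.48 CPM in control fasted and 22.4 ± 3.11 CPM in control fed livers (SD, n = 6, 6, 5 and 5). Its log2 fold change on fasting was -0.015 ± 0.16 in knockout livers (adjusted p = 0.989) and -0.34 ± 0.17 in control livers (adjusted p = 0.282, edgeR). All ranges overlapped.

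Aqp4 (ENSMUSG00000024411, chromosome 18) was the lowest member tested, with 351 to 1948 reads per group. In knockout livers it had 4.32, 8.58 and 10.1 CPM (lowest, median, highest) when fasted and 1.04, 3.72 and 5.89 CPM when fed. In control livers it had 3.46, 7.43, 5.26, 6.47 and 5.59 CPM when fasted, and 2.47, 3.36, 0.679, 1.97 and 2.34 CPM when fed. The fasted and fed ranges overlapped in knockout livers through knockout fasted replicate 5, the lowest of its group, and did not overlap in control livers, where 3.46 CPM stood next to 3.36 CPM. Aqp4 rose by 1.13 ± 0.34 on the log2 scale in knockout livers (adjusted p = 0.0419) and by 1.38 ± 0.38 in control livers (adjusted p = 0.0182, edgeR). Both calls depended on single libraries. In knockout livers the adjusted p was 0.108, 0.099 and 0.098 without knockout fed replicate 1, 2 or 6, and 0.0923, 0.0695, 0.0591, 0.0706 and 0.0753 without knockout fasted replicate 1, 2, 3, 4 or 6. In control livers it was 0.0574 without control fed replicate 3, and 0.0731 by limma voom with sample weights. The direction was the same in every one of these fits.

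Markers of bile duct epithelium and kidney were read beside Aqp4. Of 10 cholangiocyte genes 7 were tested. With fasting none was called higher, and Spp1 was called lower in control livers (log2 fold change -0.73 ± 0.20, adjusted p = 0.0166, edgeR). For comparison, 2.88% of all genes tested rose and 3.26% fell in knockout livers, and 3.99% rose and 4.13% fell in control livers. The log2 fold change was above 0 for 3 of the 7 in knockout livers (median -0.27) and for 2 of the 7 in control livers (median -0.47). The summed level of the 10 ranged from 23.2 to 37.5 CPM in knockout fasted, 26.4 to 37.7 CPM in knockout fed, 18.1 to 35.6 CPM in control fasted and 28.7 to 72.8 CPM in control fed livers. Sctr was at 0 throughout knockout fed livers. The 10 kidney genes summed to 0.318 to 5.09 CPM in knockout fasted, 0.125 to 2.19 CPM in knockout fed, 0.0482 to 21.6 CPM in control fasted and 0 to 3.39 CPM in control fed livers, with Nphs1 at 0 throughout control fasted and Slc12a1 throughout control fed livers. The part of either cell source in the level of Aqp4 was not tested.

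**Figure D3:**
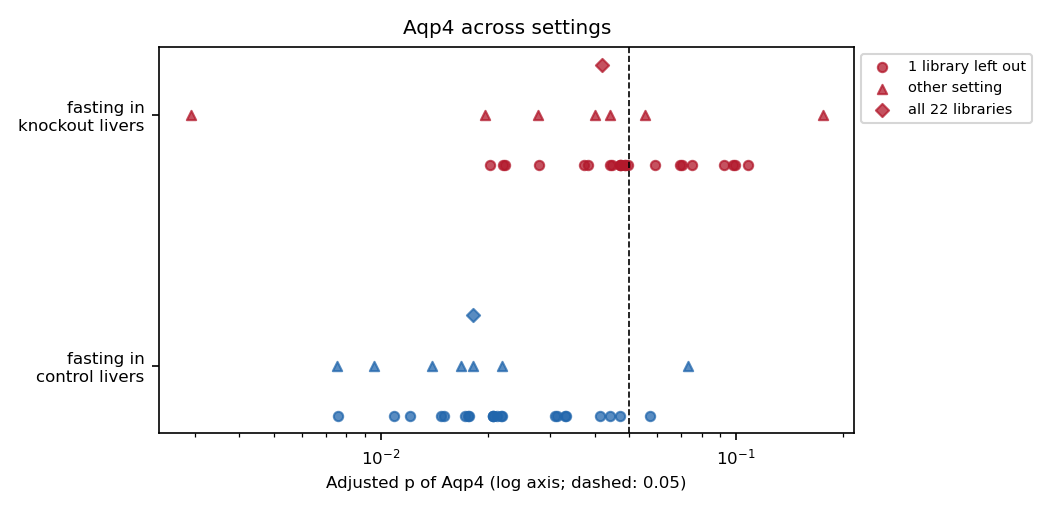
Adjusted p of Aqp4 (horizontal, log axis) for fasting in knockout and control livers with all 22 libraries, with 1 library left out and under other settings; the dashed line marks 0.05. In knockout livers 10 alternatives lie above 0.05, and in control livers 2.

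Aqp7 (ENSMUSG00000028427, chr4:41033074-41048139, minus strand) did not pass the filter and was not tested. It had 62 reads over the 22 libraries, and 14 libraries had none. It was above 0 in 2 of 6 knockout fasted, 1 of 6 knockout fed, 2 of 5 control fasted and 3 of 5 control fed libraries, and its highest level was 0.562 CPM in control fed replicate 4. Adipocyte genes were read beside it because adipocytes release glycerol through Aqp7. They summed to 20.03 to 28.2 CPM in knockout fasted and 17.0 to 26.8 CPM in knockout fed livers. In control livers they summed to 15.1 to 29.3 CPM when fasted and 16.9 to 28.5 CPM when fed. Most of each sum was Lipe and Pparg. Lipe averaged 16.7 CPM in knockout fasted, 14.5 in knockout fed, 17.0 in control fasted and 15.3 in control fed livers. Pparg averaged 4.93, 6.11, 3.58 and 4.29 CPM in the same order. In each group 1 of the 8 genes was at 0 throughout. This was Plin1 in knockout fasted livers, and Lep in knockout fed, control fasted and control fed livers. The left-out library labelled control fasted replicate 4, high in Kap, held 14.5 CPM of Aqp7. The part of adipocytes or of kidney cells in the Aqp7 reads of the 22 libraries was not tested. The remaining family members on the list, Mip, Aqp2, Aqp3, Aqp5, Aqp6 and Aqp12, also failed the filter (0 of 6 tested). Over the 22 libraries there were 90 reads of Aqp2, 56 of Aqp5, 23 of Aqp3, 2 of Aqp6, 1 of Mip and 1 of Aqp12.

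Gpd1 (ENSMUSG00000023019, chr15:99717515-99725005, plus strand) encodes the cytosolic enzyme that interconverts glycerol 3-phosphate and dihydroxyacetone phosphate. It had 512, 547 and 643 CPM (lowest, median, highest) in knockout fasted and 249, 297 and 321 CPM in knockout fed livers. In control livers it had 619, 582, 486, 683 and 571 CPM when fasted, and 322, 353, 323, 244 and 293 CPM when fed. All 11 fasted values lay above all 11 fed values. Gpd1 rose by 0.93 ± 0.10 on the log2 scale in knockout livers (adjusted p = 9.22e-08), 1.91-fold, and by 0.94 ± 0.11 in control livers (adjusted p = 4.36e-07, edgeR), 1.92-fold. The fasting effect differed between genotypes by -0.006 ± 0.15 (adjusted p = 1.0, edgeR interaction term). The antisense gene Gm16537 shares 384 exon bases with Gpd1, and the strand setting of the counting is not given. Gm16537 had at most 20 reads in a library, and Gpd1 had 49546 to 133109 reads per group.

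The other enzymes that handle glycerol 3-phosphate were read from a list of 8 genes, all tested. Of these, 3 rose and 0 fell with fasting in knockout livers, and likewise 3 and 0 in control livers, with Gk and Gpd2 among them in both. Beside this, 2.88% of all genes tested rose and 3.26% fell in knockout livers, and 3.99% rose and 4.13% fell in control livers. The median log2 fold change of the 8 was 0.84 in knockout and 0.19 in control livers, beside 0.011 and 0.0032 over all genes. Gk, the glycerol kinase that commits glycerol to the pathway, averaged 134.3 ± 34.7 CPM in knockout fasted and 60.16 ± 9.96 CPM in knockout fed livers, and 127.9 ± 29.8 CPM in control fasted and 43.17 ± 6.97 CPM in control fed livers (SD). It rose by 1.16 ± 0.15 in knockout (adjusted p = 4.49e-06) and by 1.57 ± 0.17 in control livers (adjusted p = 1.72e-07), and the groups did not overlap. Gpd2, the mitochondrial partner of Gpd1, rose by 1.07 ± 0.19 in knockout (adjusted p = 0.000321) and by 0.80 ± 0.21 in control livers (adjusted p = 0.0131), where the groups overlapped and the adjusted p was 0.0558 without control fasted replicate 5. Tkfc, the dihydroxyacetone kinase, had log2 fold changes of 1.07 ± 0.35 in knockout (adjusted p = 0.0895) and 0.15 ± 0.38 in control livers (adjusted p = 0.904). Another 4 genes did not pass either (edgeR). In knockout livers their log2 fold changes were 0.14 ± 0.13 for Gpd1l, a relative of Gpd1, 0.37 ± 0.13 for Tpi1, 0.30 ± 0.27 for Pgp and 0.77 ± 1.46 for Gk5. In control livers they were 0.23 ± 0.14 for Gpd1l, 0.03 ± 0.14 for Tpi1, 0.05 ± 0.29 for Pgp and -1.38 ± 1.61 for Gk5.

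**Figure D4:**
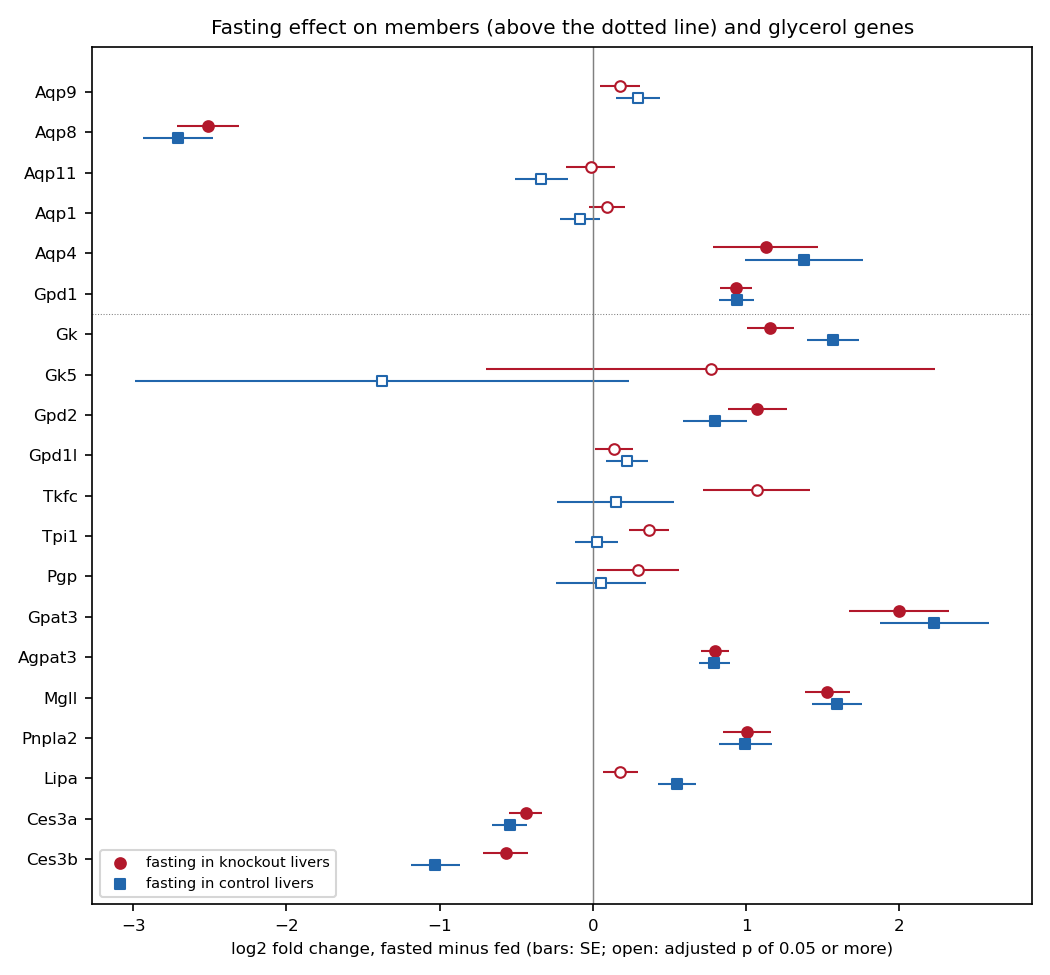
Log2 fold change, fasted minus fed (horizontal, bars SE), of the 6 members tested and of listed glycerol genes in knockout and control livers; filled symbols have an adjusted p under 0.05. Aqp8 lies furthest to the left at -2.51 and -2.71, and Gpd1 lies at 0.93 and 0.94.

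Acylation of glycerol 3-phosphate was covered by 10 genes, all tested, of which 2 rose and 0 fell in each genotype. Among all genes tested 2.88% rose and 3.26% fell in knockout livers, and 3.99% rose and 4.13% fell in control livers. Gpat3, an acyltransferase of the first step, averaged 8.68 ± 2.98 CPM in knockout fasted and 2.18 ± 0.936 CPM in knockout fed livers, and 9.97 ± 4.58 CPM in control fasted and 2.13 ± 0.706 CPM in control fed livers (SD). It rose by 2.00 ± 0.33 in knockout (adjusted p = 5.61e-05) and by 2.23 ± 0.36 in control livers (adjusted p = 5.03e-05, edgeR). Agpat3, an acyltransferase of lysophosphatidic acid, rose by 0.80 ± 0.09 in knockout (adjusted p = 1.56e-07) and by 0.79 ± 0.10 in control livers (adjusted p = 1.01e-06, edgeR). The median log2 fold change of the list was 0.38 in knockout and 0.22 in control livers, beside 0.011 and 0.0032 over all genes tested.

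Of 12 genes of triglyceride breakdown, all tested, 2 rose and 2 fell with fasting in knockout livers and 3 rose and 2 fell in control livers. The shares of all genes tested were 2.88% higher and 3.26% lower in knockout livers, and 3.99% higher and 4.13% lower in control livers. Mgll, the monoacylglycerol lipase whose reaction frees glycerol, averaged 297.1 ± 31.2 CPM in knockout fasted and 102.9 ± 25.5 CPM in knockout fed livers, and 321.3 ± 42.7 CPM in control fasted and 106.5 ± 27.3 CPM in control fed livers (SD). It rose by 1.53 ± 0.15 (adjusted p = 1.5e-08) in knockout and by 1.59 ± 0.16 (adjusted p = 4.46e-08) in control livers. Pnpla2, the adipose triglyceride lipase, rose by 1.01 ± 0.16 in knockout (adjusted p = 5.53e-05) and by 0.996 ± 0.17 in control livers (adjusted p = 0.000207, edgeR). Lipa, the lysosomal acid lipase, rose by 0.55 ± 0.13 in control livers (adjusted p = 0.00331) and had 0.18 ± 0.11 in knockout livers (adjusted p = 0.511), and the difference between these effects did not pass (-0.37 ± 0.17, adjusted p = 1.0, edgeR). Ces3a and Ces3b, carboxylesterases with lipase activity, fell by 0.44 ± 0.11 and by 0.57 ± 0.15 in knockout livers, and by 0.54 ± 0.12 and by 1.03 ± 0.16 in control livers. They belong to the same gene family, and whether reads were split between them was not tested.

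The knockout was compared with the control in each feeding state. None of the 6 members tested was called in fed livers or in fasted livers, where Gpt2 was the 1 gene called in each (0.00597% of genes tested, edgeR). At an unadjusted p under 0.05 there were 2 members in fed livers, Aqp1 and Aqp4, and 1 in fasted livers, Aqp1. Of all genes tested, 9.01% in fed and 4.01% in fasted livers lay under the same threshold. DESeq2 and limma voom also called 0 members in both. The interaction of genotype and feeding called 0 members by all of these tools, 0 at an unadjusted p under 0.05 (4.69% of all genes), and 1 gene of all tested (0.00597%, edgeR), Zfp871, named after its value was seen. Of the 30 listed pathway genes, edgeR called 0 for the knockout in fed livers and 0 in fasted livers. At an unadjusted p under 0.05 there were 1 interconversion gene (Gk), 0 acylation and 3 lipolysis genes (Lipa, Ces3b and Ces3a) in fed livers. In fasted livers the same threshold gave 0 interconversion, 0 acylation and 2 lipolysis genes (Lpl and Pnpla3). These counts are to be read against the same 9.01% and 4.01% of all genes. Pnpla3 was near 0, with 86 reads over the knockout fasted and 1 read over the control fasted libraries.

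Aqp8 had log2 fold changes, knockout minus control, of 0.34 ± 0.21 in fasted livers (adjusted p = 1.0) and 0.15 ± 0.20 in fed livers (adjusted p = 0.919). Gpd1 had -0.09 ± 0.11 in fasted (adjusted p = 1.0) and -0.08 ± 0.11 in fed livers (adjusted p = 0.918). Aqp9 had -0.06 ± 0.14 in fasted (adjusted p = 1.0) and 0.06 ± 0.14 in fed livers (adjusted p = 0.962). Aqp11 had 0.09 ± 0.17 in fasted and -0.23 ± 0.17 in fed livers, and Aqp4 0.51 ± 0.36 in fasted and 0.76 ± 0.37 in fed livers. The knockout and control ranges overlapped for all 6 members in both feeding states. A p that misses the threshold does not show that the genotypes were alike.

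Aqp1 (ENSMUSG00000004655, chr6:55336432-55348555, plus strand) did not pass the test on fasting in knockout livers (log2 fold change 0.09 ± 0.12, adjusted p = 0.848) or control livers (-0.08 ± 0.13, adjusted p = 0.826). It had 60.0, 76.2 and 87.8 CPM (lowest, median, highest) in knockout fasted livers, against 52.9, 53.9, 42.9, 63.2 and 52.8 CPM in control fasted livers. In knockout fed livers it had 60.4, 72.0 and 73.6 CPM, against 42.7, 63.1, 64.6, 62.4 and 48.5 CPM in control fed livers. In both feeding states the knockout median lay above every control value, and the ranges overlapped. The log2 fold change was 0.48 ± 0.13 in fasted livers, an unadjusted p of 0.000507 that ranked 12 of all genes (adjusted p = 0.622, edgeR). In fed livers it was 0.31 ± 0.13 (unadjusted p = 0.0185, adjusted p = 0.444, edgeR).

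The genotype effect averaged over feeding states was tested after these values had been seen. It called 6 genes (0.0358%, of which 5 were higher, 0.0298%, edgeR) and 0 of the 6 members, with 2 members at an unadjusted p under 0.05 (Aqp1 and Aqp4), as were 8.71% of all genes. DESeq2 called 1 member among 37 genes in all, and limma voom called 0 members among 4 genes. Aqp1 had an averaged log2 fold change of 0.40 ± 0.09 (adjusted p = 0.108, edgeR). The adjusted p was 0.033 by DESeq2 and 0.0452 by edgeR without knockout fasted replicate 1, and at most 0.212 with any other library left out. Endothelial genes were read beside it. All 12 on the list were tested, of which 2 passed and 10 did not, and all 12 had an averaged log2 fold change above 0, with a median of 0.43 beside 0.011 over all genes. The list was chosen with earlier results of these data known, so its shared direction is a description and not an independent test. Cdh5, the cadherin of endothelial junctions, rose by 0.75 ± 0.14 and Kdr, a receptor of vascular endothelial growth factor, by 0.59 ± 0.11 (adjusted p = 0.0288 each, edgeR). The summed endothelial level ranged from 202.6 to 316.9 CPM in knockout fasted and 182.7 to 248.6 CPM in control fasted livers, and from 227.1 to 324.6 CPM in knockout fed and 140.9 to 239.3 CPM in control fed livers, with none of the 12 at 0. Of 7 cholangiocyte genes tested 3 lay above 0 and 4 below, and none was called. Of 6 erythroid genes tested, from a list of 8, 3 lay above 0 and 3 below (median -0.008), and none was called. The 8 erythroid genes summed to 347.9 to 627.5 CPM in knockout fasted and 280.8 to 572.4 CPM in control fasted livers, and to 246.1 to 450.3 CPM in knockout fed and 283.7 to 632.7 CPM in control fed livers. The part of these cell types in the level of Aqp1 was not tested.

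**Figure D5:**
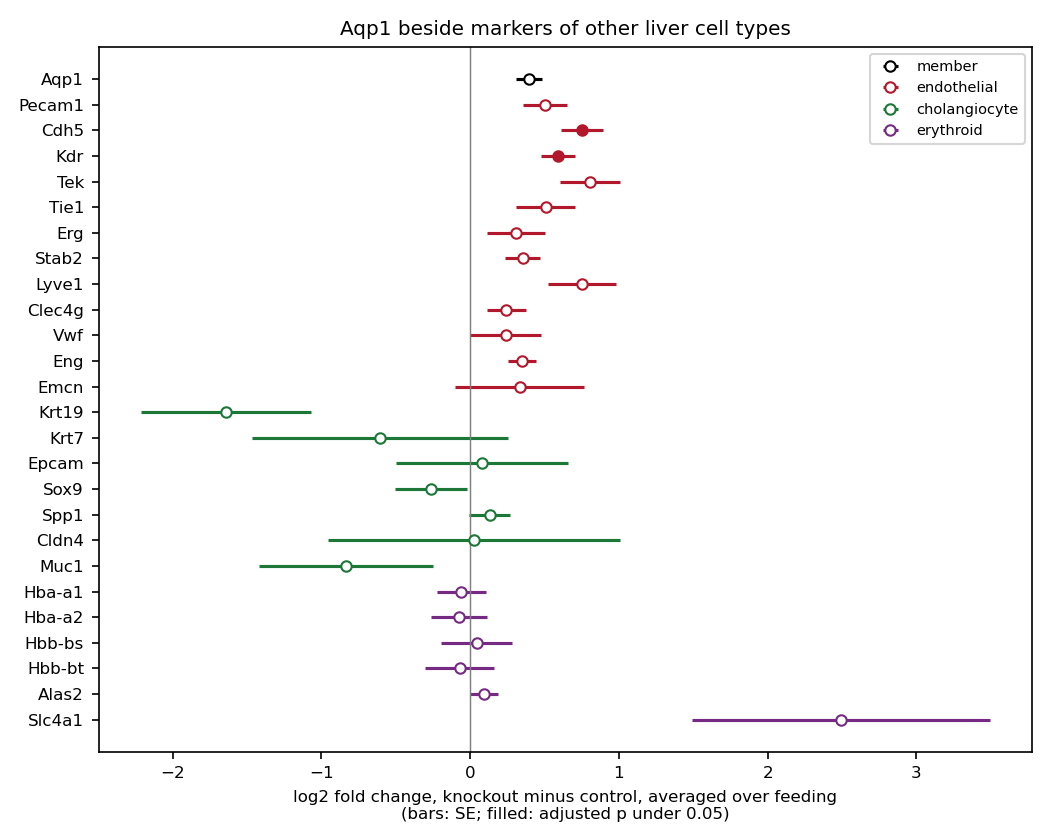
Log2 fold change, knockout minus control averaged over feeding (horizontal, bars SE), of Aqp1 and of endothelial, cholangiocyte and erythroid genes tested; filled points have an adjusted p under 0.05. Aqp1 at 0.40 lies within the spread of the 12 endothelial genes, whose median is 0.43. It also lies within that of the 6 erythroid genes, whose median is -0.008, below Slc4a1 alone at 2.49.

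Across the 22 libraries, the genes whose log2 CPM followed a member most closely were found among 8894 genes, as a description in which the points share the 4 groups. For Aqp8 these were Cyp4f14, Ido2 and Acly, each with a Pearson correlation of 0.95, and 0.27, 0.47 and 0.24 once the group means had been removed. For Gpd1 they were Rtf2, Ech1 and Hsd17b4 (0.98, 0.97 and 0.97, and 0.76, 0.72 and 0.69 within groups). For Aqp4 they were Slc36a4, Tomm40l and Nipal1 (0.86, 0.84 and 0.82, and 0.65, 0.70 and 0.52 within groups). For Aqp9 they were Ugt3a2, Adtrp and Hnrnpa1 (0.82, 0.82 and 0.81, and 0.80, 0.81 and 0.76 within groups). For Aqp11 they were L3hypdh, Mtmr3 and Atp5j2 (0.75, 0.74 and 0.73), and for Aqp1 Abi1, Opa1 and Rspry1 (0.79, 0.78 and 0.77). Between members, Aqp8 and Gpd1 ran opposite to each other over the libraries (-0.96), and at -0.43 within groups.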

How the data were processed

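Liver RNA was selected with oligo-dT, per the labels' protocols. Per the submitters' processing notes, the build was GRCm38 and the tools included featureCounts 1.4.6-p5 (Subread), STAR 2.5.1a and bcl2fastq. No source used here gives the annotation release or the strand setting. The authors deposited read counts per gene, which entered every test. The deposited CPM and RPKM values matched these counts divided by library total, and by gene length, and served only as a check. Symbols came from GENCODE M21 (40340 of 41388 genes, 97.5%).

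Counts of 22 libraries in 4 groups entered 1 fit of edgeR 4.0.16 in R 4.3.3 (TMM factors, filterByExpr with a minimum count of 10 and total of 15, robust quasi-likelihood test). Benjamini-Hochberg adjustment covered the 16757 genes tested, with a threshold of 0.05. SE is that of the log2 fold change, derived for edgeR as its absolute value divided by the square root of the F statistic. Over 231 pairs of libraries the smallest chi-square per degree of freedom was 31.5, so none was a duplicate. The procedure was tested on simulated data.

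Named were all members, and from each list up to 4 genes with the smallest p in a contrast, all genes of lists of 8 or fewer and called genes, of which a few are not reported here. Members and lists were chosen with earlier results of these data known. The 3 most alike genes were named by Pearson correlation of log2 CPM (prior count 2, mean of at least 2). Each result was recomputed leaving out each library, with control fasted replicate 4 put back, with DESeq2 1.42.0, with limma 3.58.1 voom and sample weights, on the compared groups alone, with RLE factors or library totals, and with a filter of 1 read.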

Additional observations from a re-analysis of the deposited data

Results flagged for a closer look

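In 96 groups of libraries examined, 1 for each gene and group, 5 held a library far from the others, where chance gives about 1 in 20, or 4.8. That share does not hold for Aqp7, which was at 0 in 14 libraries, so that a few reads could set a library apart. Aqp4 was at 4.32 CPM in knockout fasted replicate 5, below 7.53 to 10.1 CPM in the other 5 libraries of that group. Aqp7 was at 0.114 CPM in knockout fasted replicate 1, above 0 to 0.0225 CPM in the others, and at 0.229 CPM in knockout fed replicate 6, where the others had no reads. Tpi1 was at 427 CPM in control fasted replicate 2, above 324 to 347 CPM in the others. Gpat2 was at 1.43 CPM in knockout fed replicate 2, below 2.15 to 2.54 CPM in the others.

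The library labelled control fasted replicate 4, left out of the comparisons, had higher levels of several aquaporins than any of the 5 control fasted libraries used. It held 382 CPM of Aqp1 (highest of the 5: 63.2 CPM), 14.7 CPM of Aqp4 (7.43 CPM) and 14.5 CPM of Aqp7 (0.195 CPM). It also held 85.6 CPM of Aqp2 (0.0244 CPM), the collecting duct water channel, 58.6 CPM of Aqp3 (0.0963 CPM) and 29.2 CPM of Aqp6 (listed at 0 in all 5). In the same library Aqp8 was at 1.96 CPM and Aqp9 at 0.805 CPM, below every other library. Its TMM factor came from a separate fit that included it, and those of the other libraries from the fit without it.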

How the results depend on the processing

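Of 2070 alternative values for single genes, 2035 kept their side of the threshold, 23 lost a call, 12 gained one and 0 changed sign with a call. Most of the 2070 belonged to results not called in the main fit, where no call could be lost. The tally therefore says little about how firm the calls were. Aqp8 and Gpd1 kept their fasting calls under every alternative run in both genotypes. Their log2 fold changes ranged from -2.63 to -2.42 and from 0.89 to 0.96 in knockout livers, and from -2.88 to -2.60 and from 0.87 to 1.001 in control livers, with 1 library left out. With control fasted replicate 4 put back, Aqp1 on fasting in control livers was 0.95 ± 0.44 (adjusted p = 0.241), Aqp8 -2.92 and Gpd1 0.83 (both called), and the averaged genotype effect on Aqp1 was -0.12. In that setting Gpt2 itself was not called (adjusted p = 0.116 in fed and 0.24 in fasted livers, edgeR), and 379 genes were called for fasting in knockout and 805 in control livers. The count for the knockout in fed livers was 5 with library totals, 14 without the filter, 68 by DESeq2, 0 with that library and 1 to 13 with 1 library left out. In fasted livers it was 3 by DESeq2 and 0 with that library. The interaction gave 6 by DESeq2, 0 with that library and 0 to 1 with 1 library left out. The averaged genotype effect gave 12 with library totals, 12 without the filter, 37 by DESeq2, 1 with that library and 3 to 15 with 1 library left out. Among members it gave 1 by DESeq2 and 0 to 1 with 1 library left out. The cause of these shifts was not tested. Pathway calls lost included Gpd2 in control livers (adjusted p = 0.0585 by limma voom, 0.0548 with only the groups compared), and Ces3a and Ces3b in both genotypes with control fasted replicate 4. Aqp4 in knockout livers was also not called with that library (0.175) or with only the groups compared (0.0555). Aqp7 was near 0, and its 62 reads over the 22 libraries allow no comparison. No paired analysis was possible because the labels give the groups no shared replicate numbers. Some title numbers are consecutive across groups, the labels do not say whether this marks a litter or batch, and no fit blocked by them was run.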
